A study of Mus with 8 samples.

Results

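C-only sites were stretches of the genome where C/EBPβ gave a ChIP-seq peak in control cells 4 hours after the induction of adipogenesis and in no other condition of the study. Peaks of the 4 deposited lists that overlapped by 1 bp or more were merged into 28658 regions. The 1881 C-only sites were chosen by the lists themselves, as the regions holding C 4 h peaks alone, so their number, strength and width are descriptions and were not tested. Of the 13440 regions with a C 4 h peak, C-only sites made up 14.0% (95% Wilson interval 13.4 to 14.6), and 11532 regions, called shared sites here, also held a P 4 h peak. The P 4 h list was the longer, with 26713 peaks against 13525, and when it was cut to the length of the C 4 h list 4438 sites (33.0%) were C-only. When a match needed a reciprocal overlap of 50%, 2861 (21.2%) were. By the rule used, the remaining 27 regions had a peak at day −2 but none in P cells at 4 h. P-only sites, which held P 4 h peaks alone, numbered 15022.

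The cells were 3T3-L1, a mouse embryonic fibroblast line committed to the fat lineage. C cells had been infected with a lentivirus for a scrambled shRNA and P cells with a lentivirus for an shRNA against Prep1, and both were selected with puromycin. Chromatin was taken from uninduced cells at day −2 and 4 hours after adding 1 µM dexamethasone, 0.5 mM IBMX and 1 µg/ml insulin. Each of the 4 conditions had 1 ChIP and 1 input sample (8 in all), from 1 parental line and 1 shRNA against Prep1. There were no replicates, so library, hairpin and Prep1 level cannot be told apart, and intervals given below cover counting error only.

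C/EBPβ is a basic leucine zipper transcription factor that is switched on within hours of hormonal induction and binds enhancers before Pparγ and C/EBPα, the later drivers of the adipocyte programme, are made. Prep1 is a TALE homeodomain protein that pairs with Pbx factors on DNA. A ChIP-seq peak marks a place where fragments pulled down with the antibody pile up above the local input. A list that ends at a fixed p holds no value for a place that stayed below it, so a C-only site is one that was not called in P cells, which is not the same as one without C/EBPβ.

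Most C-only sites were modest peaks, but a few were among the clearer ones of the C 4 h list. They all held exactly 1 peak each. The strongest lay on chromosome 3, at chr3:150946848-150947122 (mm9, as all positions here). It reached a fold enrichment of 23.7 over the local input, with 34 fragments at its summit (exact 95% Poisson interval 23.5 to 47.5). At its input background, which was at the genome-wide level, 6 fragments would have passed the p threshold. The nearest P 4 h region was 122986 bp away, and C cells had a peak there too.

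Next by −log10 p came chr2:114600097-114600337, with 31 fragments and a fold enrichment of 19.6. The site at chr19:34437577-34437976 had 33 fragments over a higher input background, 2.09 times the genome level, which gave a fold enrichment of 17.0. At chr1:184874869-184875118 there were 27 fragments and a 17.6-fold enrichment. All 3 stood well over the 6 or 7 fragments needed, and their nearest P 4 h regions were 25942, 17165 and 11345 bp away.

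The other 4 of the 8 strongest had 24 to 30 fragments. They were chr16:25912315-25912608 (30 fragments), chr5:124892699-124892957 (25 fragments), chr10:128441303-128441572 (24 fragments) and chr9:123879638-123879913 (24 fragments). Of these, the site on chromosome 5 was the closest to a P 4 h region, at 2655 bp, and the site on chromosome 9 the farthest, at 119500 bp.

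**Figure D1:**
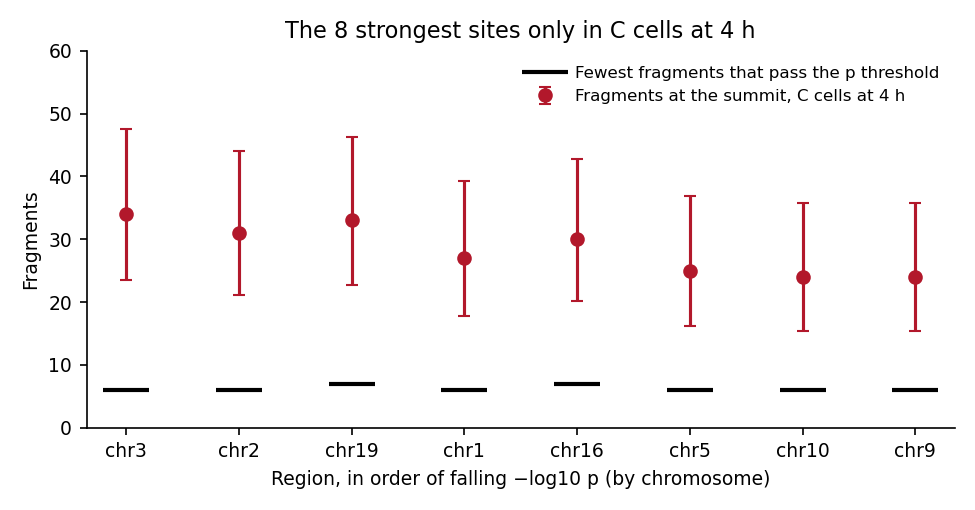
Fragments at the summit in C cells at 4 h (points, with exact 95% Poisson intervals) for the 8 C-only sites of highest −log10 p, and the fewest fragments that pass the p threshold at each site's own input background (black bars). Counts ran from 24 to 34, and 6 or 7 fragments were needed.

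Beyond these 8, the highest fold enrichments were at chr15:85220435-85220689 (16.6), chr16:3723412-3723692 (16.1) and chr7:81764562-81764852 (16.1). In all, 17 C-only sites reached a −log10 p of 30, on 13 chromosomes. They were 17 of the 2769 C 4 h peaks of that strength (0.614%, interval 0.384 to 0.981). Their fold enrichment ran from 14.5 to 23.7 and their fragments from 22 to 34. None had an input background of 3 times the genome level or more, and none lay within 1 kb of a P 4 h region. Their median gap to one was 24849 bp (2655 to 306847).

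Over all 1881, C-only sites were weaker and narrower than the C 4 h peaks at shared sites. The median fold enrichment was 7.38 (quartiles 6.30 and 8.57, range 1.74 to 23.7), against 9.60 (7.45 and 13.7) for the 11617 C peaks at shared sites. The median summit held 13 fragments (quartiles 11 and 15) against 18 (14 and 26). The median −log10 p was 11.5 against 17.8. Median width was 188 bp against 242 bp, and 441 C-only sites (23.4%) had the shortest width in the list, 164 bp, against 6.55% of the C peaks at shared sites.

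The P 4 h list gave a larger spread between its own classes. P peaks at shared sites had a median fold enrichment of 15.5 and 31 fragments, and P-only sites 9.24 and 17. P-only sites were thus stronger than C-only sites by the medians of fold enrichment, fragments and width (212 bp), each list being scored against its own input.

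**Figure D2:**
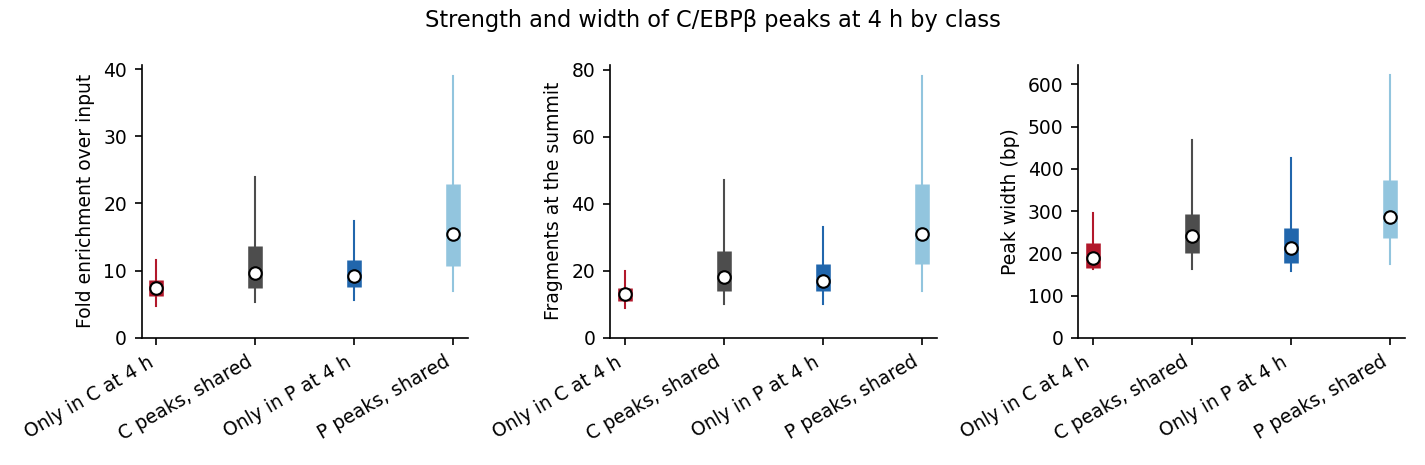
Fold enrichment, fragments at the summit and width of peaks at 4 h in C-only sites, C peaks at shared sites, P-only sites and P peaks at shared sites. Circles are medians, thick bars the quartiles and thin lines the 5th to 95th percentiles. C-only sites had the lowest median in each panel (7.38, 13 fragments and 188 bp).

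The share of C 4 h peaks that were C-only fell with strength. It was 32.9% (142 of 431, interval 28.7 to 37.5) at a −log10 p from 5 to under 7.5 and 22.8% from 10 to under 15. It was 4.65% from 20 to under 30 and 0.103% (1 of 973) at 50 or more. P-only sites followed the same order from a higher start, with 90.1% of the weakest class of P 4 h peaks and 5.38% of the strongest. By fragments, 41.8% of the C 4 h peaks with fewer than 9 were C-only, and 0.350% (8 of 2283) of those with 30 or more.

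Width moved with the share too. Among C 4 h peaks of the shortest width 36.6% were C-only, and among those of 400 bp or more 2.93%. Within one class of strength, −log10 p from 10 to under 15, the share was 31.4% below 180 bp and 12.4% from 250 bp upwards. Width is not independent of a rule based on overlap, and its part in the share was not tested.

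**Figure D3:**
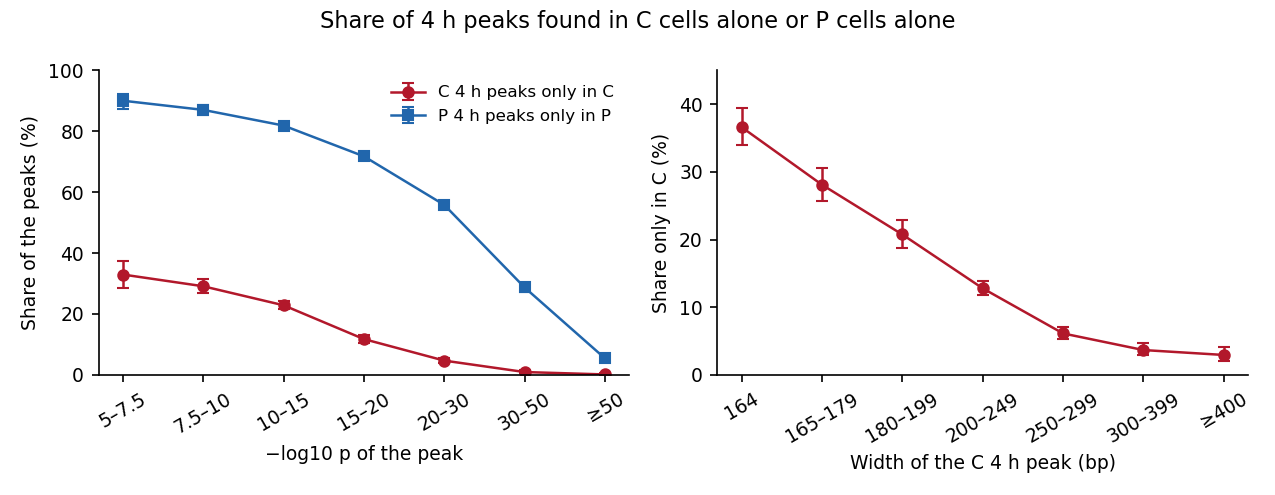
Left, share of C 4 h peaks that were C-only and of P 4 h peaks that were P-only, by −log10 p of the peak. Right, share of C 4 h peaks that were C-only, by peak width in bp. Points are shares with 95% Wilson intervals, and both C curves fall from left to right, from 32.9% to 0.103% for strength and from 36.6% to 2.93% for width.

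Distance from the threshold was counted in fragments. A C-only site had a median of 6 fragments more than its own background required, and a C peak at a shared site 11 more. At 353 C-only sites (18.8%) the surplus was 3 fragments or fewer, against 6.15% of C peaks at shared sites, and at 19 it was 0. The lower Poisson limit of the fragment count reached the required number at 795 C-only sites (42.3%, interval 40.1 to 44.5), against 76.6% of C peaks at shared sites. The lowest −log10 p was at chr2:179779053-179779357. The next was shared by several sites with equal values, of which chr1:52729216-52729470 came first by position. Both named sites had 7 fragments, exactly the number needed, and a fold enrichment of 4.01.

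Input background was lower at C-only sites than at shared sites. Its median was 1.75 times the genome level (interval 1.71 to 1.88), against 2.09 at C peaks of shared sites, and 9.41% of C-only sites had 3 times the genome level or more, against 17.6%. P-only sites stood to P peaks at shared sites in the same way, with medians of 2.07 and 2.17 and with 15.02% and 22.2% at 3 times or more. At 10 times or more there were 3 C-only sites (0.159%, interval 0.0543 to 0.468), against 0.387% (0.290 to 0.518) of C peaks at shared sites. The 3 were picked out after their values were seen. The largest, chr2:98502756-98503098, had 146 fragments over an input background 175 times the genome level, and a fold enrichment of only 1.74. The others were on an unplaced piece (39.7 times) and at chr2:77808132-77808304 (13.8 times). The 146 fragments are thus the highest count and the 1.74 the lowest fold enrichment of the whole class.

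The widest C-only site, chr16:30590255-30591214, spanned 960 bp with 18 fragments and a fold enrichment of 10.95. It was followed by chr5:86868066-86868704 (639 bp, 21 fragments) and chr5:74273004-74273628 (625 bp, 15 fragments). Each of the 3 had its summit towards the right end, and each lay within 5083 bp of a region that both C and P cells held at 4 h. Only 7 C-only sites were wider than 500 bp.

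The sites were also placed against the other lists. The median gap from a C-only site to the nearest P 4 h region was 16644 bp (interval 15093 to 18511, quartiles 4677 and 47139). Shared sites were 10210 bp (9796 to 10646) from the nearest other P 4 h region. A P 4 h region lay within 1 kb of 157 C-only sites (8.35%, interval 7.18 to 9.68), against 12.4% of shared sites, and within 10 kb of 39.4%, against 49.5%. These values depended on how a match was defined. With a reciprocal overlap of 50% the share within 1 kb was 39.7% and the median gap 4424 bp, and with summits within 100 bp they were 27.5% and 9100 bp. Merging peaks up to 500 bp apart gave 3.48% within 1 kb, merging up to 1000 bp apart gave 0% by construction, and cutting the P 4 h list to the length of the C 4 h list gave 5.23% and a median gap of 31424 bp. At the far end, 199 C-only sites were more than 100 kb from any P 4 h region and 4 more than 1 Mb. A P 4 h region lay within 100 kb of 89.4% of C-only sites (interval 87.9 to 90.7). Another one lay within 100 kb of 94.1% of shared and 91.6% of P-only sites. Within 1 Mb the 3 shares were 99.8%, 99.9% and 99.8%. The remote 199 had a median fold enrichment of 7.45 and 12 fragments, and the 741 sites within 10 kb of a P 4 h region 7.26 and 12 fragments. Measured to the nearest shared site, C-only sites did not stand apart from P-only sites. The median gaps were 37075 bp (33474 to 39831) and 36597.5 bp (35372 to 37741), against 24893.5 bp from a shared site to the nearest other shared site.

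**Figure D4:**
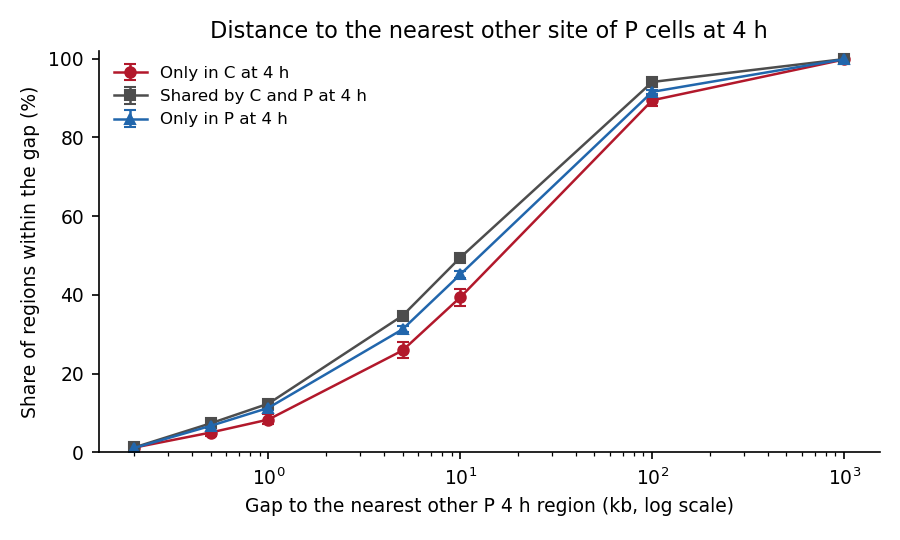
Share of C-only, shared and P-only sites with another P 4 h region within a given gap (kb, log axis), with 95% Wilson intervals. From 1 kb to 100 kb the C-only curve runs under the other two, with 8.35% against 12.4% of shared sites at 1 kb and 39.4% against 49.5% at 10 kb.

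A P 4 h region lay within 200 bp of 23 C-only sites (1.22%), and another one within 200 bp of 1.26% of shared and 1.14% of P-only sites. At the edge of the rule, chr7:77181853-77182016 was kept apart from a P peak by 4 bp. It had 7 fragments, and the P peak 31. The gaps at chr4:63970105-63970447 (8 fragments) and chr9:31449650-31450017 (10 fragments) were 11 and 23 bp, beside P peaks of 11 and 9 fragments. Their summits lay 267 to 359 bp from those of the P peaks. Just across the edge, the shared sites with the shortest overlaps had C peaks at chr16:15070783-15070983, chr11:86393843-86394134 and chr16:6712433-6712636, which overlapped a P peak by 17, 21 and 24 bp with summits 216 to 268 bp apart. Only 69 of the 11532 shared sites rested on 100 bp of overlap or less.

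For the 157 C-only sites within 1 kb of a P 4 h region, the nearest P peak was usually the taller, as P peaks were at 82.1% of shared sites. Its fold enrichment was higher than that of the C-only site in 123 of 157 pairs (78.3%), with medians of 10.6 and 7.02. The median of the P peak was 14.7 where its region was shared and 8.62 where it was P-only, near the medians of 15.5 and 9.24 over all such P peaks. In 91 pairs the P region was a shared site, so that C cells held a peak both there and at the C-only site. In the other 66 it was P-only, and C and P cells each held a peak that the other lacked, with no more than 1 kb between them.

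C-only sites took a smaller share of C 4 h regions where P peaks were dense. Of C 4 h regions with no other P 4 h region within 50 kb, 20.2% (438 of 2173, interval 18.5 to 21.9) were C-only. With 1 such neighbour the share was 16.6%, with 3 it was 13.4%, and with 6 or more it was 8.55% (183 of 2141, interval 7.44 to 9.81). The order held within classes of strength from a −log10 p of 5 to under 30, and stronger peaks were not split in this way. At a −log10 p from 10 to under 15 the share went from 28.9% (25.8 to 32.3) without a neighbour to 15.3% (12.6 to 18.4) with 6 or more, and from 15 to under 20 from 18.6% to 4.75%.

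C peaks were sparser around C-only sites as well. A C-only site had a mean of 1.46 other C 4 h regions within 50 kb and a shared site 1.69, and for P 4 h regions the means were 2.37 and 3.08. That made 1.63 P regions for each C region around C-only sites and 1.82 around shared sites. Among the C 4 h regions with no other C 4 h region within 50 kb, 18.96% (17.3 to 20.8) of those without a P neighbour were C-only, and 13.4% (11.9 to 15.1) of those with 1 or 2. In that class the share was 13.6% (10.5 to 17.4) with 3 to 5 P neighbours and 13.2% (5.75 to 27.3) with 6 or more. Both intervals held the 13.4%, and the last rested on only 38 regions, too few to show whether the fall went on. With 1 or 2 C neighbours it went on falling, from 27.5% without a P neighbour to 15.8% with 1 or 2, 11.7% with 3 to 5 and 7.05% with 6 or more. With 3 or more C neighbours it was 22.3%, 12.9% and 8.79% over the last 3 of these classes, and 8 of 10 regions were C-only in the first. A C neighbour at a shared site is also a P neighbour, so the counts of C and P neighbours are not independent. Where a region had no P neighbour, any C neighbour was itself C-only or 1 of the 27 regions with a day −2 peak. The 27.5% and the 8 of 10 thus follow in part from how the classes are defined. No conclusion is drawn from the falls that start at them.

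**Figure D5:**
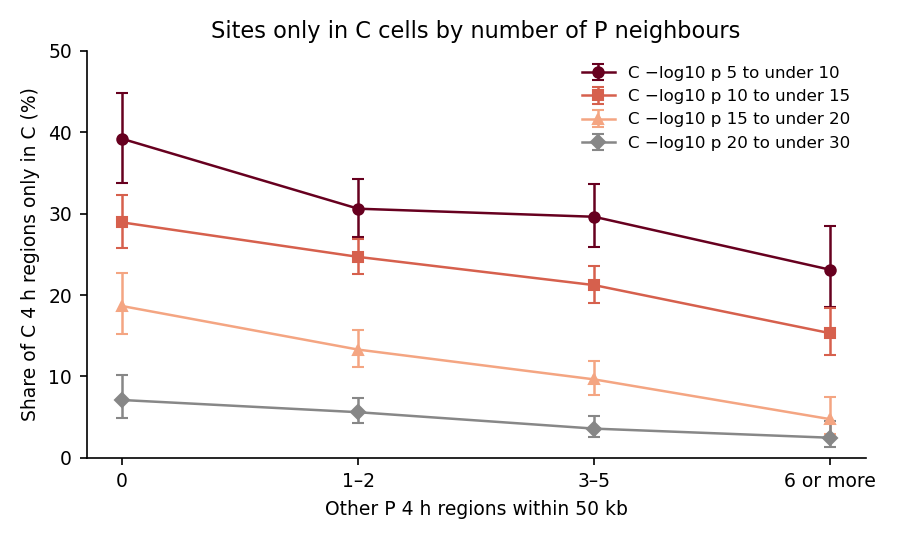
Share of C 4 h regions that were C-only, by the number of other P 4 h regions within 50 kb, for 4 classes of −log10 p of the C peak (points, with 95% Wilson intervals). Each line falls from left to right, from 39.2% to 23.1% at a −log10 p from 5 to under 10. In the highest class drawn, from 20 to under 30, it falls from 7.10% to 2.47%.

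The membership rule did not use the height of peaks at shared sites, so these were examined around C-only sites. Peak calls and fold enrichments both rest on the local input, and its part in the ratios below was not tested. At 9463 of the 11532 shared sites (82.1%) the fold enrichment was higher in P than in C cells, and the median of the log2 P/C ratio was 0.62. At the 569 shared sites within 10 kb of a C-only site the median ratio was 0.50 (interval 0.44 to 0.61), and P cells were higher in 438 (77.0%). At the other 10963 it was 0.62 (0.60 to 0.64), with P cells higher in 82.3%. The intervals of both medians overlapped narrowly. At the 91 shared sites within 1 kb the median ratio was 0.45 (0.14 to 0.63).

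This difference was not even over C peaks of different strength. For C peaks with a −log10 p from 15 to under 30 the median log2 ratio was 0.38 (0.23 to 0.48) near a C-only site and 0.55 (0.53 to 0.58) elsewhere. For those from 5 to under 15 it was 0.84 and 0.82, the other way round, and for those of 30 or more 0.41 and 0.45. Nearness to a P-only site went with the opposite shift, to 0.68 within 10 kb against 0.58 farther away. Nearness to another shared site went with 0.63 against 0.61.

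Day −2 regions were rare near sites of both kinds. A day −2 region lay within 1 kb of 14 C-only sites (0.744%, interval 0.444 to 1.25), and another day −2 region lay within 1 kb of 1.14% of shared sites (0.958 to 1.35), and these intervals overlapped. Within 5 kb the shares were 2.66% (2.02 to 3.49) and 3.91% (3.57 to 4.28). The median gap was 277523 bp (255439 to 304265) for C-only sites and 221958 bp (211840 to 229664) for shared sites, with no overlap of the intervals. The membership rule left out sites with a day −2 peak of their own, whereas shared sites could hold one. The 2 sets thus differ in this by construction, and no conclusion is drawn from the gaps.

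C-only sites were spread over the whole genome, with 1879 on chromosomes 1 to 19 and X and 2 on unplaced pieces. Chromosome 2 held the most (177) and X the fewest (31). As a share of C 4 h regions they ranged from 10.8% on chromosome 10 (76 of 703, interval 8.72 to 13.3) to 17.0% on chromosome 9 (107 of 629, interval 14.3 to 20.1). The interval held the genome-wide 14.0% for 16 of 20 chromosomes. It lay above on chromosomes 3 and 9 and below on chromosomes 1 and 10. P regions numbered 2.36 for each C region on chromosome 10 and 1.93 on chromosome 1, against 1.93 on chromosome 3 and 1.89 on chromosome 9. X had the highest ratio, 2.65, with a C-only share of 12.4%, and chromosome 5 the lowest, 1.65, with 16.0%. Chromosomes 12 and 18 had ratios of 2.08 and 2.13 with shares of 15.6% and 14.9%. Whether ratio and share went together was not tested. The median fold enrichment of C-only sites stayed between 7.03 and 8.13 on every one of the 20.

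C-only sites made up 6.56% of all regions. Counting sites as a run where no region of another kind lay between them, 1505 were single, 147 runs were pairs, 19 held 3 sites, 2 held 4, 1 held 5 and 2 held 6. Runs of 2 or more held 376 of the 1881 C-only sites (19.99%, interval 18.2 to 21.9). Whether this was more than their share of all regions would give was not tested. The median gap between a C-only site and the next nearest was 240806 bp, and 116 (6.17%) had another within 10 kb. Among the runs of 2 sites, the shortest by total span covered 572 bp (chr1:137388646-137389217) and 831 bp (chr5:119481774-119482604).

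The longest runs by number were 6 sites at chr3:145849256-145966573, 6 at chr5:86868066-87206199 and 5 at chr2:147268660-147471796. The run on chromosome 3 fitted into 117318 bp, with 9 to 21 fragments and fold enrichments of 6.52 to 11.03, and no P 4 h region came within 77063 bp of any of its sites. The run on chromosome 5 covered 338134 bp and had fold enrichments of 6.01 to 14.5, and a P 4 h region lay 2996 bp from one of its sites. In the run on chromosome 2, over 203137 bp, the 5 fold enrichments lay between 7.78 and 8.10, and the nearest P 4 h region was 17360 bp away.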

How the data were processed

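The authors sequenced C/EBPβ ChIP and input libraries on an Ion Torrent instrument, aligned unique reads to mm9, removed duplicates, equalised read numbers by down-sampling and called peaks per condition, each ChIP library against input, at a −log10 p of 5. The submitters' processing notes name Bowtie 0.12.8, SAMtools 1.3.1 and MACS2 2.0.10.20131028. The deposited fold enrichment is a ratio at the summit, with 1 added to both terms. The deposited −log10 p and −log10 q are the peak caller's own. The deposited score repeats the −log10 p and was not used. Peak names in both 4 h lists carry an hour tag of 5, whereas the labels give 4 h. Depth is not given in the lists. The 4 h lists held 13525 C and 26713 P peaks. The efficiency of the immunoprecipitation was not measured, and its part in list length was not tested.

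Regions were merged and compared with Python 3.11.15, pandas 2.3.3, numpy 2.4.6, scipy 1.17.1 and statsmodels 0.14.6. Fragments and input background at each summit were recovered from fold enrichment and p under the caller's Poisson model, and whole fragments were found for 100% of peaks in both 4 h lists. The background at genome level was 0.476 fragments for C and 0.461 for P. The steps were tested on simulated data. Shares have Wilson intervals, and medians have intervals from binomial order statistics. The log2 P/C ratio compared the fold enrichments of the highest C and P peak of a shared site. No test between conditions was possible.

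The regions to be named were the 8 C-only sites of highest −log10 p, the next 3 by fold enrichment, the 3 widest, the 3 nearest to a P 4 h region, the 3 shared sites of shortest overlap, the 2 of lowest −log10 p and 3 runs. A further choice, the 3 sites with most peaks, named none, as every site held 1 peak. The pairs of shortest span and the 3 sites of highest background were added after their values were seen. Members and lists were chosen with earlier results of these data known. Gene names, motifs and sequences of the sites were not analysed here, since the files are in mm9 coordinates and the gene table used in this work was made for GRCm38.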

Additional observations from a re-analysis of the deposited data

How the results depend on the processing

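Of 54 values under other processing choices, 27 stayed within their range of counting error, or within 1.5 times for the number of sites, and 27 moved. With the P 4 h list cut to the length of the C 4 h list, 4438 sites were C-only (33.0%), with a median −log10 p of 12.6, a median fold enrichment of 7.52, 5.23% within 1 kb of a P 4 h region and a median gap of 31424 bp. With a reciprocal overlap of 50% the values were 2861 sites, 21.2%, a −log10 p of 12.2, 39.7% within 1 kb and a gap of 4424 bp. With summits within 100 bp they were 17.6%, 27.5% and 9100 bp. Merging peaks up to 500 bp apart gave 3.48% within 1 kb and a gap of 18700 bp. Merging up to 1000 bp apart gave a share of 13.3%, 0% within 1 kb by construction, and 19929 bp. A −log10 p of at least 10 gave a share of 13.004% when set in all 4 lists and 11.5% when set in the C 4 h list alone, with medians of 13.2 and 8.02 for −log10 p and fold enrichment under both. A fold enrichment of at least 5 gave medians of 12.2 and 7.47. In these the filter removes the weakest peaks. After seeing the data, 6 alternatives were added for the median log2 P/C ratio at shared sites within 10 kb of a C-only site less that elsewhere, which was −0.12. It turned to 0.025 for C peaks with a −log10 p from 5 to under 15, and the cause was not tested. The other 5 kept the direction (−0.17 to −0.04). No paired analysis was possible because each condition had 1 library. The lists hold no depth, and a site under the p threshold has no value, so the level in P cells at C-only sites was not measured.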
